A study of Mus musculus with 15 samples.

Results

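The genes described here are the mouse zinc finger genes whose symbols begin with Zfp and a number. They were taken from the authors' H3 tables as every gene so named in any of the 6 tables outside chromosome 1. There were 95 such genes among 6691 named genes. ACF1 segments that overlapped the bounds of these genes were added from the 3 ACF1 lists. The bounds and the mm9 coordinates are those given in the H3 tables.

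The study profiled chromatin in C57BL/6 mice, in the nucleus accumbens of the ventral striatum, which takes part in reward, after chronic social defeat stress. Susceptible mice and resilient mice had been defeated by CD1 mice for 10 minutes a day on 10 days and were told apart afterwards by a social interaction test, and control mice had not been defeated. The last defeat came 48 hours before dissection, and each replicate pooled the punches of 10 mice. Histone H3 was immunoprecipitated after micrococcal nuclease digestion, so that it marks nucleosomes, and ACF1, the accessory subunit of the ACF remodelling complex, after shearing. All groups were of the same strain, and the labels name no transgene or drug. The files held no expression values, so the tissue could not be checked against marker genes, and a change in cell makeup of a punch cannot be told apart from a change within cells.

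Each pair of groups had 1 deposited occupancy table, which listed positions marked Up or Down, and 1 shift table. Up was read as more H3 in the first-named group of the pair. This order is not written in the files; read the other way, every direction given here turns round. Per the labels there were 3 replicates in each group, but the tables held 1 result per pair and the ACF1 lists 1 result per group. No spread between replicates could therefore be set against any difference, and no test between groups was possible. The depth is unknown. Intervals in parentheses after a share are exact binomial 95% intervals that cover the number of positions or genes only. Positions of 1 gene, or of neighbouring copies, are not independent. The 3 tables share groups in pairs, so that values from different tables are not independent of each other either.

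Zfp is a name start and not a single family. Most genes that carry it encode proteins with an array of C2H2 zinc fingers that read DNA sequence, and many also carry a KRAB domain. KRAB zinc finger proteins bind TRIM28 (KAP1), which brings in the methyltransferase SETDB1 and HP1 proteins, and the H3K9 methylation that follows silences retroelements and some imprinted genes. Their genes arose by tandem duplication and lie in clusters, in which the last exon encodes the finger array. ACF slides nucleosomes and sets their spacing.

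Zfp genes were named about as often as other genes, or somewhat less often. Of 393 Zfp genes that RefSeq lists outside chromosome 1, 94 (23.92%, 19.78 to 28.45) were named in any of the 6 tables, against 27.6% of all 20683 RefSeq protein-coding genes. In the resilient against control occupancy table, 42 of the 393 genes (10.69%, 7.812 to 14.17) held a position, against 14.92% of all protein-coding genes. The share was 12.72% (9.592 to 16.43) against 15.01% in the susceptible against control table, and 11.45% (8.476 to 15.02) against 13.38% in the resilient against susceptible table. Of the 207 RefSeq Zfp genes that lie beside another Zfp gene, 49 (23.67%) were named, and of the other 186, 45 (24.19%) were. Over all tables these shares lay within each other's intervals (18.05 to 30.06 and 18.23 to 31.0). In the resilient against control table they were 7.729% (4.482 to 12.25) for the genes beside another Zfp gene and 13.98% (9.339 to 19.81) for the others, with overlapping intervals.

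Within the 95 genes, 51 held a position in the susceptible against control table, 42 in the resilient against control table and 45 in the resilient against susceptible table. The background over all 6691 named genes was 53.9%, 53.3% and 49.2% in the same order of tables, and the Zfp shares were 53.68%, 44.21% and 47.37%. These shares read only on genes that the tables name. The 3 tables held 65, 60 and 54 Zfp positions, of 16617, 16132 and 14963 positions outside chromosome 1. That made 179 entries at 157 distinct positions in 91 genes, and the remaining 4 genes (Zfp329, Zfp345, Zfp600 and Zfp811) were named only through a shift. Most Zfp genes with a position had a single one: 44 of 51 genes in the susceptible against control table, 33 of 42 in the resilient against control table and 38 of 45 in the resilient against susceptible table. The same count was not made over all named genes, so this cannot be read as particular to Zfp genes.

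Few Zfp positions lay in promoters, and over genes of all lengths the interval of the share included the background in each table. The authors' promoter classes reach 3000 bp to either side of the gene start, and the body class runs from there to about 1 kb past the gene end. In the susceptible against control table, 4 of 65 Zfp positions (6.154%, 1.702 to 15.01) were in a promoter class, against 13.5% of the positions in all genes. In the resilient against control table it was 5 of 60 (8.333%, 2.761 to 18.39) against 12.7%, and it was 2 of 54 in the resilient against susceptible table (3.704%, 0.4517 to 12.75) against 12.2% there. The Zfp share was below the background in each table, and the interval included the background in the first and second of them and, narrowly, in the third. With genes of 10 to 40 kb alone, a limit chosen after seeing the data because gene length sets how much of a gene is promoter, 7 of 91 Zfp positions (7.692%, 3.149 to 15.21) were in a promoter class, against 685 of 3840 (17.84%, 16.64 to 19.09) for all genes of that length. By table this was 2 of 35 (5.714%, 0.6997 to 19.16) against 19.19% in susceptible against control mice. It was 4 of 24 (16.67%, 4.735 to 37.38) against 16.49% in resilient against control mice. In resilient against susceptible mice it was 1 of 32 (3.125%, 0.07909 to 16.22) against 17.75%. The resilient against control share thus stood near that of all genes, and the others below it. The intervals of the tables overlap, so whether the tables differ in this cannot be told. With the Zfp genes of chromosome 1 kept, the share in susceptible against control mice over all lengths was 11.4%.

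The 11 promoter positions belonged to 10 genes, and 9 of the 11 were marked Down. Promoter positions of all genes were mostly Down as well. Their Up shares were 37.23% in susceptible against control mice, 32.9% in resilient against control mice and 45.79% in resilient against susceptible mice. Both Up marks were in the susceptible against control table, in Zfp105 (513.5 bp before the start) and Zfp389 (2771.5 bp after the start). Zfp389 is 2.21 kb long, so that its mark, though in a promoter class, lay 562.5 bp past the gene end. Zfp846 was marked Down at the same place, 2269.5 bp before its start, in susceptible mice and in resilient mice against the same controls. Zfp14 (2533.5 bp after the start) and Zfp773 (994.5 bp after) were marked Down in resilient mice against controls, and Zfp385c (1885.5 bp after) and Zfp511 (1862.5 bp after) in resilient against susceptible mice. No gene had a position in the class nearest the start, within 250 bp, in more than 1 table.

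Exactly 3 genes had a position within 250 bp of the start, and all 3 marks were Down. Over all genes and all promoter classes, 472 of 752 positions were Down in susceptible against control mice. In resilient against control mice 463 of 690 were. In susceptible mice against controls the gene was Zfp42 (chromosome 8, 44380420 to 44392363, minus strand), also called Rex1, a marker of pluripotent stem cells, at position 44392282, 81.5 bp inside the gene. In resilient mice against controls the genes were Zfp616 (chromosome 11, 73883671 to 73900803, plus strand), at position 73883692, 20.5 bp inside the gene, and Zfp936 (chromosome 7, 50432957 to 50447479, plus strand), at position 50432932, 25.5 bp before the start. The sequences of the 250 bases before the RefSeq start of these genes are shown because each gene had a mark within 250 bp of its start. They are RefSeq promoters of the build GRCm38.p6, so their coordinates differ from the mm9 coordinates of the tables, and the starts may not be the same. For Zfp616 they probably differ. Zfp735, on the same chromosome, starts at 73502279 in mm9, and its RefSeq promoter ends at 73688777. Zfp616 starts at 73883671 and its RefSeq promoter ends at 74060896, a smaller step between the builds. The Zfp616 sequence may therefore not lie beside its mark. The sequences stand at chr8:43307010-43307259 (minus strand) for Zfp42, chr11:74060647-74060896 (plus strand) for Zfp616 and chr7:43177340-43177589 (plus strand) for Zfp936. Each is written 5′ to 3′ on the strand of the gene, and capitals mark matches, on either strand, to the GC box (GGGCGG or CCGCCC), the CCAAT box (CCAAT or ATTGG), the TATA box (TATAAA or TTTATA) and the octamer (ATGCAAAT or ATTTGCAT).
Zfp42: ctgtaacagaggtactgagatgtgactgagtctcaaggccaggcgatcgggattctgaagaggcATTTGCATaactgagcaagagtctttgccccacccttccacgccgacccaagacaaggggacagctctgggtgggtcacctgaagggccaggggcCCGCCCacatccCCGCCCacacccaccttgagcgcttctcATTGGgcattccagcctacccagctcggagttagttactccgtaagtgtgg
Zfp616: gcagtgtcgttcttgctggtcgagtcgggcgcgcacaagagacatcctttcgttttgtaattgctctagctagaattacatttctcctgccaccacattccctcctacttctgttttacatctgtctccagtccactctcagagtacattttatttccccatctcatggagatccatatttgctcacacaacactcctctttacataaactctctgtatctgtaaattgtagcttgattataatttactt
Zfp936: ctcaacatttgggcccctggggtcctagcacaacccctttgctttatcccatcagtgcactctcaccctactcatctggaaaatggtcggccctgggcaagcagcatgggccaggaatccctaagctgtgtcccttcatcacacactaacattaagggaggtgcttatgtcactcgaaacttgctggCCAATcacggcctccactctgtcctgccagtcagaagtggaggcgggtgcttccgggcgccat

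The Zfp42 sequence held 2 GC boxes, 1 CCAAT box and 1 octamer, the Zfp936 sequence 1 CCAAT box, and the Zfp616 sequence none of the motifs. Their GC contents were 58.4%, 56.0% and 41.6%. RefSeq promoters were matched for 79 of the 95 genes, and the first listed promoter was used where a symbol had several. Among these 79, 36 (45.6%) held a CCAAT box, against 34.6% of 25381 promoters of all genes. A TATA box was in 3 (3.8%) against 13.1%, a GC box in 30 (38.0%) against 33.1%, and an octamer in 3 (3.8%) against 1.59%. The 34 promoters of clustered genes held no TATA box and no octamer. The median number of CpG pairs in the 250 bases was 9, against 6 for all promoters, and the median GC content 53.6% against 52.0%. A match is a string of letters and not evidence of binding.

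Gene bodies held 168 of the 179 entries. The middle Zfp body position lay at 64.1% of the gene length from the start, against 56.7% for 13833 body positions of all genes, and the distance to the gene end had a median of 11.2 kb against 33.4 kb. Zfp genes were shorter than the other named genes, with a median of 19.4 kb against 36.9 kb over all named genes. The body class starts 3000 bp after the gene start and runs past the end. In a short gene its middle therefore lies further along as a percentage of length, and how much of the gap comes from this was not tested. Among genes of 10 to 40 kb, 23 of 91 Zfp positions (25.27%, 16.75 to 35.47) fell in the last 3 kb of the gene or up to 1 kb past its end, against 679 of 3840 (17.68%, 16.49 to 18.93) for all genes of that length. Lengths still differed inside these limits, with a median of 17.9 kb for Zfp genes against 22.5 kb for all genes. The same end stretch is thus a larger part of a Zfp gene, and its share in the excess was not tested. By table the shares differed in size, but their intervals overlap, so whether the tables differ in this cannot be told. The share was 13 of 32 (40.62%, 23.7 to 59.36) in resilient against susceptible mice, against 17.08% for all genes, but 5 of 35 (14.29%, 4.806 to 30.26) against 18.39% in susceptible against control mice and 5 of 24 (20.83%, 7.132 to 42.15) against 17.49% in resilient against control mice. Of the 23 positions near the end, 17 lay in clustered genes, where they made up 32.69% (20.33 to 47.11) of 52 positions, and 6 of 39 (15.38%, 5.862 to 30.53) lay in single genes. The clustered genes here had a median of 15.8 kb and the single genes 19.4 kb. Zfp53, Zfp787 and Zfp956, all clustered, each had a place near the end that was listed in 2 tables and so counted in both.

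**Figure D1:**
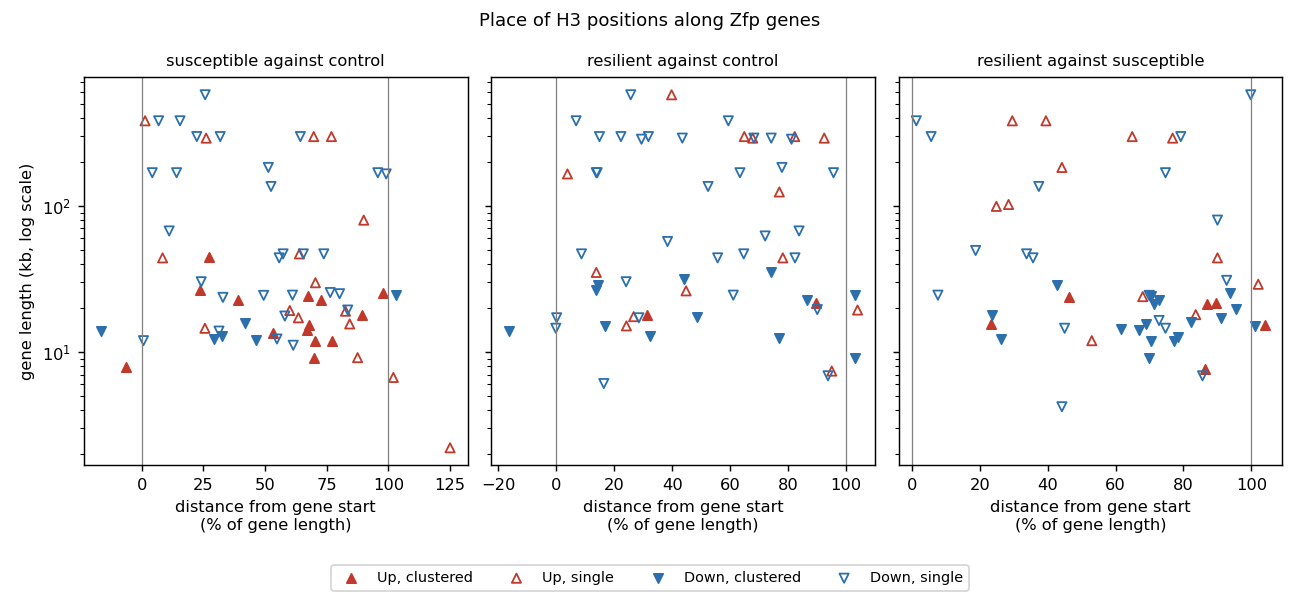
Each triangle is an H3 position of a Zfp gene, placed by its distance from the gene start as a percentage of gene length (horizontal axis, 0 is the start and 100 the end) and by gene length in kb on a log axis, with 1 panel per occupancy table. Up positions are red and Down positions blue, filled for clustered and open for single genes; in resilient against susceptible mice, 13 of the 32 positions in genes of 10 to 40 kb lie in the last 3 kb or just past the end.

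In direction, the Zfp genes stood apart from the background in one table by their own interval. In resilient against susceptible mice, 18 of 54 Zfp positions (33.33%, 21.09 to 47.47) were marked Up, against a background of 49.8% over the 4851 positions in all genes. In resilient mice against controls, 16 of 60 (26.67%, 16.07 to 39.66) were Up, against 36.7%. In susceptible mice against controls, 30 of 65 (46.15%, 33.7 to 58.97) were Up, against 37.6%. Both tables with resilient mice on top thus had the lower Up share, and the susceptible against control table the higher one. Counted by gene, 23 had Up marks alone, 24 Down marks alone and 4 both in the susceptible against control table. The same counts were 10, 28 and 4 in the resilient against control table and 12, 28 and 5 in the resilient against susceptible table. The members were chosen with earlier results of these data known, so these shares are a description.

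Promoters and bodies could hardly be compared for direction. The Up share in promoters was 2 of 4 positions against 28 of 61 (45.9%) in bodies for susceptible against control mice, a difference of 4.1 points (-41.1 to 49.2). It was 0 of 5 in promoters against 16 of 55 (29.09%) in bodies for resilient against control mice, a difference of -29.1 points (-42.9 to 24.3). It was 0 of 2 against 18 of 52 (34.62%) for resilient against susceptible mice, a difference of -34.6 points (-49.1 to 50.5). Each of these intervals, built from the exact intervals of the 2 shares, includes 0. Over all genes the promoter and body shares were 37.23% and 37.61%, 32.9% and 37.2%, and 45.79% and 50.32% in the same order of tables. With the 3 tables together, 2 of 11 Zfp promoter positions (18.18%, 2.283 to 51.78) and 62 of 168 body positions (36.9%, 29.6 to 44.68) were Up.

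A gene was called clustered when another of the 95 lay within 250 kb. By this rule 37 genes were clustered and 58 single. Clustered genes were 7.65 to 44.3 kb long (median 15.5 kb), and single genes 2.21 to 575 kb (median 24.4 kb), with 11 over 100 kb. Per 100 kb of gene, clustered genes held 7.22 distinct positions and single genes 2.74. A gene enters the set only if a table names it, so short genes necessarily show a high density here. The 37 clustered genes were in 10 runs, on chromosomes 17, 13, 7, 9 and 6, and the rule counts only named genes as neighbours. Some single genes, such as Zfp2, Zfp97 and Zfp600, lie beside another Zfp gene in RefSeq. The split thus depends on which genes the H3 tables name, and is not one of genomic arrangement alone.

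Clustered and single genes differed most in the susceptible against control table. There, 14 of 20 positions in clustered genes were Up (70.0%, 45.72 to 88.11) against 16 of 45 in single genes (35.56%, 21.87 to 51.22). The difference was 34.4 points (5.55 to 57.1), and the background of 37.6% lay close to the single genes. In resilient mice against controls, the clustered genes had 2 of 14 positions Up (14.29%, 1.779 to 42.81) and the single genes 14 of 46 (30.43%, 17.74 to 45.75), a difference of -16.1 points (-35.9 to 15.1). In resilient against susceptible mice, the clustered genes had 6 of 24 Up (25%, 9.773 to 46.71) and the single genes 12 of 30 (40%, 22.66 to 59.4), a difference of -15.0 points (-39.7 to 12.8). Summed over the tables, clustered genes had 22 of 58 positions Up (37.93%) and single genes 42 of 121 (34.71%), so the contrast lies in the tables and not in the total. By gene, 12 of 18 clustered genes had Up marks alone and 6 Down marks alone in susceptible mice against controls. Against that stood 2 Up and 12 Down of 14 clustered genes in resilient mice against controls, and 4 Up, 15 Down and 2 with both of 21 in resilient against susceptible mice. The signs held under each other rule run, while the sizes moved. All rules draw on the same positions, so the held signs are no separate support. In the order of the tables above, the differences were 38.9, -14.4 and -23.4 points with a distance of 100 kb, and 22.5, -22.1 and -17.3 points with 1000 kb. Further rules were added after seeing the data. Genes of 10 to 40 kb alone gave 31.4, -30.1 and -17.3 points, and being next to another Zfp gene in RefSeq gave 17.5, -10.8 and -4.95 points. How the authors treated reads that match several gene copies is not given in the sources used here, and its part in these values was not tested.

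**Figure D2:**
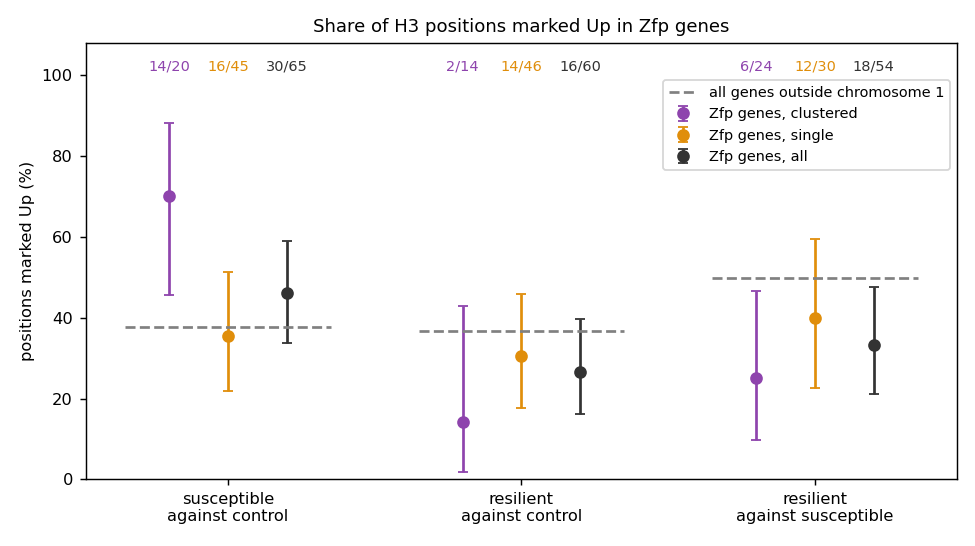
The share of H3 positions marked Up (percent, vertical axis) is plotted for clustered, single and all Zfp genes in each occupancy table, with exact binomial 95% intervals and the number Up over the number of positions above each point. The dashed line is the share over all genes outside chromosome 1; the clustered genes stand at 70.0% in susceptible against control mice, above that line, and at 14.29% and 25% in the tables of resilient mice, below it.

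The run with the most members was on chromosome 17 (21520711 to 22131333), with Zfp677, Zfp51, Zfp53, Zfp760, Zfp229, Zfp820, Zfp942 and Zfp943 in 611 kb. Its 13 entries were 2 Up and 0 Down in susceptible against control mice, 2 Up and 3 Down in resilient against control mice, and 3 Up and 3 Down in resilient against susceptible mice. Zfp53 was marked Up at position 21645202, 2.24 kb before its end, in resilient mice against controls and in resilient against susceptible mice, which share the resilient group. Zfp760 was Up 1.93 kb before its end (21860672) in susceptible against control mice, Up at 21850302 in resilient against control mice and Down at 21848952 in resilient against susceptible mice. The 3 genes at the far end of the run, Zfp820, Zfp942 and Zfp943, each carried 1 Down mark in resilient against control mice.

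The chromosome 13 run (67139529 to 67585189, 446 kb) held Zfp712, Zfp708, Zfp458, Zfp595, Zfp456, Zfp459 and Zfp874b, all on the minus strand. It had 3 Up and 3 Down in susceptible against control mice, 1 Down in resilient against control mice and 5 Down with no Up in resilient against susceptible mice. Zfp712 (67139529 to 67162106) was Up at 67145682 and 67153302 in susceptible against control mice, Down at 67142532 in resilient against control mice, and Down again at 67145682 in resilient against susceptible mice. Zfp458 had 1 position, 67360532, Up in susceptible against control mice and Down in resilient against susceptible mice. At the positions in Zfp712 and Zfp458 that both tables list, H3 was thus higher in susceptible mice than in either of the other groups, as the marks were read; both tables use the same susceptible result. Zfp595 (908.5 bp before its end), Zfp456 and Zfp874b (2.73 kb before its end) carried the other Down marks of resilient against susceptible mice. The Up marks in susceptible against control mice came from Zfp712 and Zfp458, and the Down marks from Zfp708, Zfp456 and Zfp459.

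**Figure D3:**
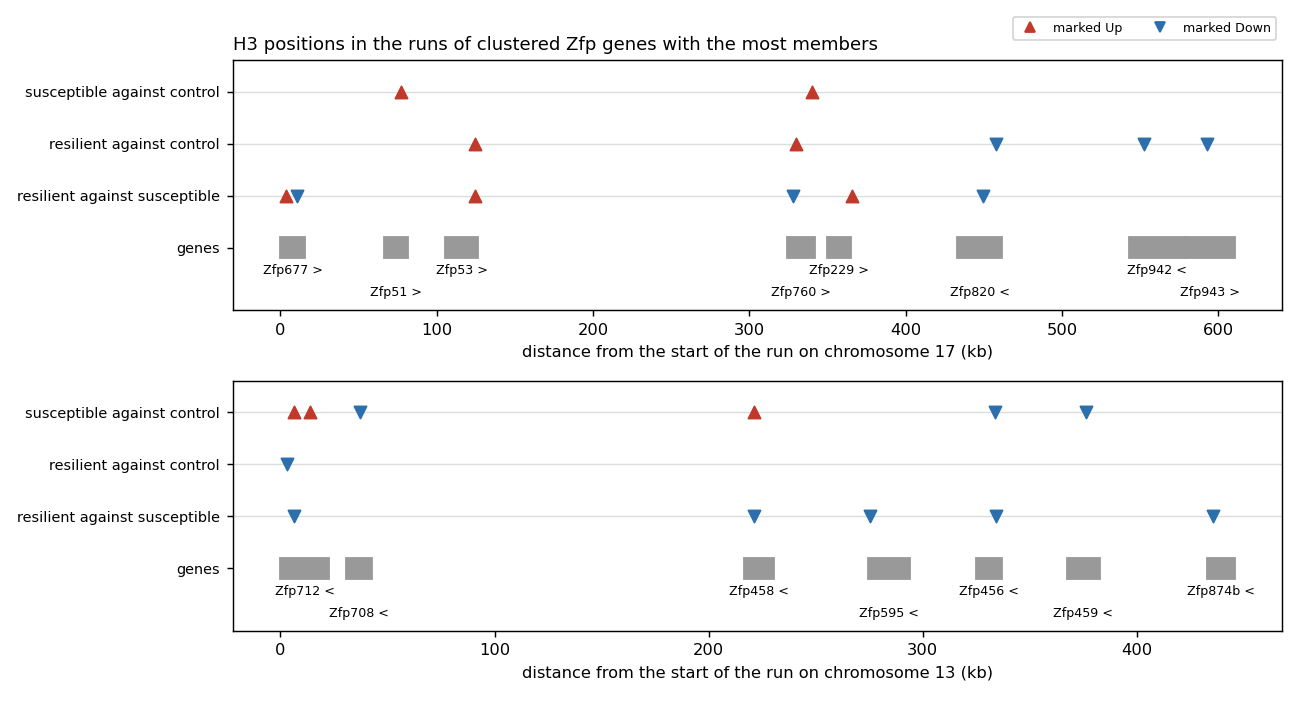
H3 positions are drawn along the 2 runs of clustered Zfp genes with the most members, on chromosome 17 (upper panel, 13 entries) and chromosome 13 (lower panel, 12 entries), by distance from the start of the run in kb, with a row for each occupancy table and grey boxes for the genes (> plus strand, < minus strand). Red triangles are Up and blue triangles Down; in the lower panel all 5 positions of resilient against susceptible mice and the 1 position of resilient against control mice are Down.

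The other 4 runs of at least 3 genes were smaller. On chromosome 7 (30601090 to 30836415), Zfp790, Zfp420, Zfp27, Zfp568 and Zfp14 had 1 Up and 1 Down in susceptible against control mice, 3 Down in resilient against control mice and 1 Down in resilient against susceptible mice. The Up mark was in Zfp568, a KRAB zinc finger gene whose protein silences a placental transcript of Igf2. Zfp27 was Down at 30686972 in both tables that share the controls. Also on chromosome 7 (24866962 to 25047463), Zfp180, Zfp235 and Zfp108 had 2 Up in susceptible against control mice, 1 Down in resilient against control mice, and 1 Up and 2 Down in resilient against susceptible mice. Zfp235 was Up at 24925532 in susceptible against control mice, and Down at that place in resilient against susceptible mice. On chromosome 9 (20272992 to 20399637), Zfp426, Zfp266 and Zfp846 had 2 Up and 1 Down in susceptible against control mice, 2 Down in resilient against control mice and 1 Down in resilient against susceptible mice. On chromosome 17 (32932620 to 33116156), Zfp811, Zfp870 and Zfp472 had 1 Up in susceptible against control mice and 1 Down in resilient against control mice. Taken over the 6 runs, 29 genes held 45 entries.

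The pairs of clustered genes were Zfp956 and Zfp777, Zfp787 and Zfp667, Zfp955b and Zfp101, and Zfp445 and Zfp105. Zfp956 (chromosome 6, 47903388 to 47915298, plus strand) was Up at 47911762 and 47912592 in susceptible against control mice and Down at the same places in resilient against susceptible mice, with no position in resilient against control mice. These places lay 3.54 and 2.71 kb before its end. Zfp445, a KRAB zinc finger gene that helps to keep imprints, had 1 Down mark, 1.54 kb before its end, in resilient against susceptible mice. Zfp787 was Down at 6082302, 788.5 bp past its end, in both tables that share the controls.

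Among single genes, those with the most entries, Zfp423, Zfp407 and Zfp618, were over 100 kb long. Other genes over that length held few, such as Zfp521 (286 kb) with 2 entries. Of the 10 genes with the most entries, 8 were single, and of the 16 genes with at least 3 entries, 12 were. Of all 95 genes, 58 were single. Zfp423 (chromosome 8, 90185708 to 90483494, minus strand, 298 kb), which encodes a transcription factor that works with EBF and SMAD proteins, had the most, 13 entries at 10 distinct positions. It had 2 Up and 3 Down in susceptible against control mice, 2 Up and 3 Down in resilient against control mice, and 1 Up and 2 Down in resilient against susceptible mice. The Down marks at 90388892 and 90417032 stood in both tables that share the controls, and the Up mark at 90290102 in both tables with resilient mice on top. Per 100 kb it held 3.36 distinct positions. This is close to the 3.4 over all 95 genes, a value that short genes raise. Among the genes over 100 kb, only Zfp618 held more, at 3.56.

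Zfp618 (chromosome 4, 62626607 to 62795064, plus strand, 168 kb), whose protein binds UHRF2, had the most entries among the genes marked in 1 direction alone. There were 3 Down in susceptible against control mice, 4 Down in resilient against control mice, 1 Down in resilient against susceptible mice and no Up. Positions 62650442 and 62787872 were Down in both tables that share the controls. Zfp462, whose human counterpart is linked to a neurodevelopmental syndrome, and Zfp385c were also Down once in each of the 3 tables. Zfp536 (chromosome 7, 38264127 to 38554771, minus strand, 291 kb), a repressor of neuronal differentiation, had 1 Up in susceptible against control mice, 2 Up and 3 Down in resilient against control mice, and 1 Up in resilient against susceptible mice. No position of Zfp536 stood in more than 1 table.

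Zfp407 (chromosome 18, 84377093 to 84758896, minus strand, 382 kb) had 1 Up and 2 Down in susceptible against control mice, 2 Down in resilient against control mice, and 2 Up and 1 Down in resilient against susceptible mice. Its position 84753832, 5.06 kb from the start, was Up in susceptible against control mice and Down in resilient against susceptible mice. Zfp804b (chromosome 5, 6769029 to 7344378, minus strand, 575 kb), the longest gene of the set and a paralog of Zfp804a, whose human counterpart is a psychiatric risk gene, had 1 Down in susceptible against control mice, 1 Up and 1 Down in resilient against control mice, and 1 Down in resilient against susceptible mice. Its 0.521 distinct positions per 100 kb were the fewest among the genes over 100 kb, with Zfp521 next at 0.7.

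The other single genes with many entries were much shorter. Zfp951 (chromosome 5, 105242186 to 105289087, minus strand, 46.9 kb) had 1 Up and 3 Down in susceptible against control mice, 2 Down in resilient against control mice and 1 Down in resilient against susceptible mice, or 14.9 distinct positions per 100 kb. Zfp808 (chromosome 13, 62231249 to 62275296, plus strand, 44 kb) had 1 Up and 1 Down, 1 Up and 2 Down, and 1 Up and 1 Down in the same order of tables, or 13.6 per 100 kb. Zfp936 (14.5 kb) had 1 Up in susceptible against control mice, 1 Down in resilient against control mice and 2 Down in resilient against susceptible mice, or 27.5 per 100 kb.

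**Figure D4:**
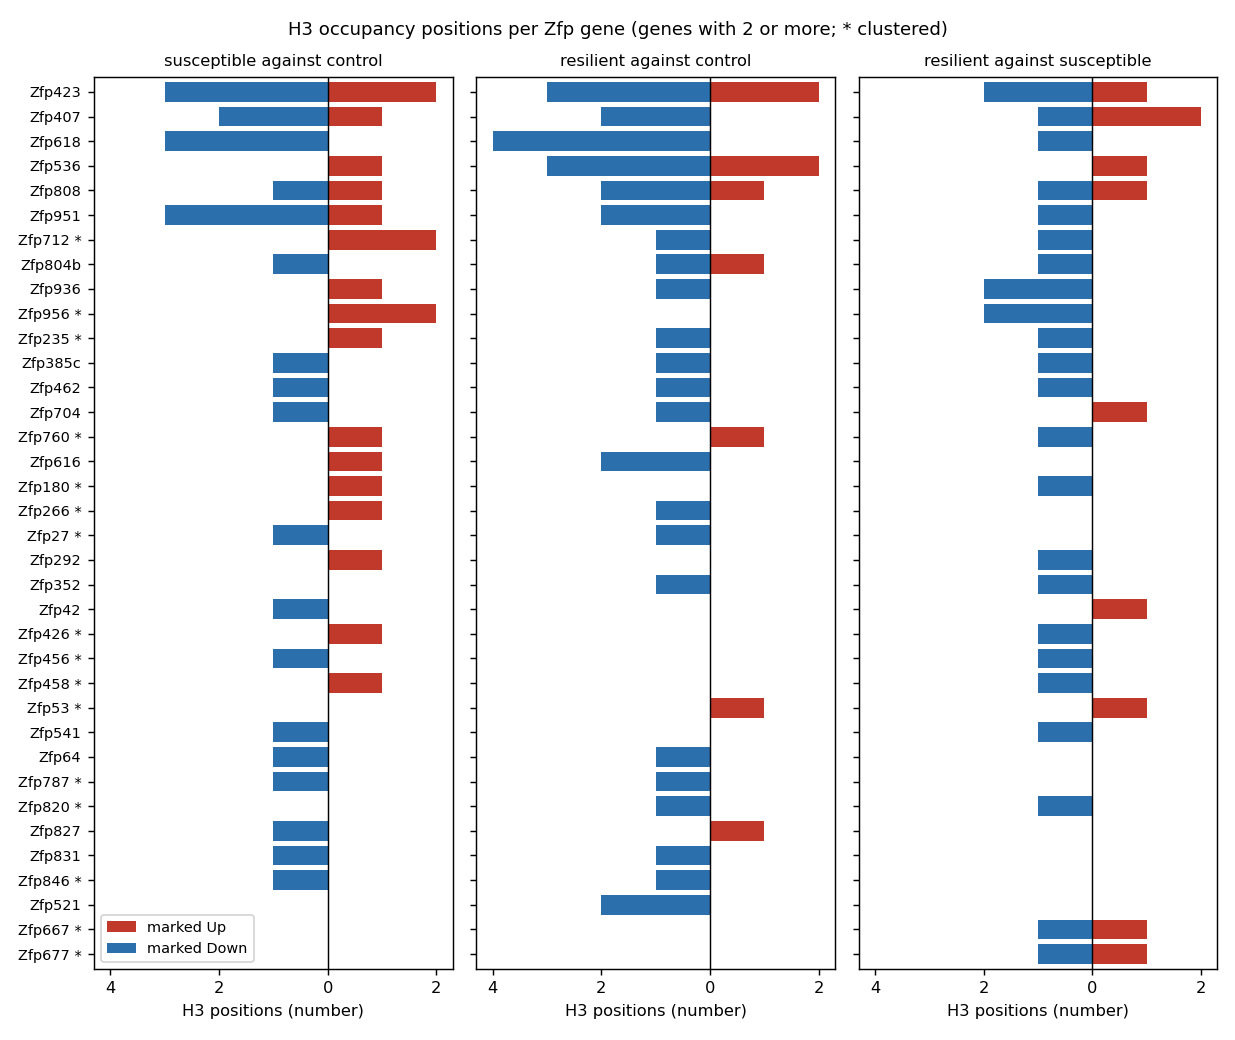
Bars give the number of H3 positions marked Up (red, to the right of 0) or Down (blue, to the left of 0) for each Zfp gene with at least 2 entries, with 1 panel per occupancy table and an asterisk for clustered genes. Zfp423 has the most entries, 13 in all, and the 8 entries of Zfp618 are all Down.

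Nucleosome shifts were rare. Of 95 Zfp genes, 4 held a shift in susceptible against control mice (4.211%, background 2.15% of named genes), 0 in resilient against control mice (background 1.93%) and 1 in resilient against susceptible mice (1.053%, background 1.7%). A count of 0 of 95 allows a share of up to 3.809%. In susceptible against control mice the authors' deposited tables gave 70 bp for Zfp329 (922.5 bp before its start), 60 bp for Zfp811 (1714.5 bp after its start), 60 bp for Zfp345 (4.9 kb after its start) and -80 bp for Zfp600 (16.4 kb after its start). In resilient against susceptible mice the table gave 80 bp for Zfp536, 5.36 kb before its end. Which way a positive shift runs is not stated in the files. Zfp536 was the only one of the 95 genes with both a shift and occupancy positions.

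ACF1 segments touched 4 Zfp genes, none of them clustered by the 250 kb rule. With a distance of 1000 kb, Zfp600, Zfp735 and Zfp936 counted as clustered, and Zfp600 lies beside another Zfp gene in RefSeq. The lists divide the genome into 2 states with no score, and the minority state E2 is called a segment here; the files do not say which state stands for binding. A segment overlapped 3 of the 95 genes (3.158%) in susceptible mice, 2 (2.105%) in resilient mice and 2 (2.105%) in control mice, by at least 1 bp. The background over all named genes was 2.5%, 1.4% and 1.81%, so each Zfp count differs from the background by less than 1 gene. The segments concerned were 4 of 1047 in susceptible mice, 3 of 666 in resilient mice and 2 of 688 in control mice.

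Zfp600 (chromosome 4, 146125090 to 146166150, plus strand) was overlapped in every group. Segments covered 37711 bp of it (91.8%) in susceptible mice, 25600 bp (62.3%) in resilient mice and 20400 bp (49.7%) in control mice. The susceptible list also held the most segments outside chromosome 1, 1047 against 666 and 688 in the same order. The total length of the segments was not compared between groups. How reads that match several gene copies were treated is not given, and its part in these lengths was not tested. The susceptible segment at 146115601 to 146153800 ran across the gene start, while the first resilient segment and the control segment both began at 146125801, inside the gene. The shift of -80 bp at 146141442 lay inside the segments of all 3 groups, and the gene had no occupancy position. Zfp936 was covered over 2244 bp (15.5%) in susceptible mice by a segment of 7000 bp (50428201 to 50435200) that reached across its start, over 0 bp in resilient mice, and over 800 bp (5.51%) in control mice. Both segments ended at 50435200. The Down position at the start of Zfp936 in resilient against control mice, described above, lay inside the susceptible segment and 1469 bp from the control one. Its Up position in susceptible against control mice, 50436682, lay 1482 bp from the segments of both groups.

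The remaining overlaps were in 1 list each. Zfp735 (chromosome 11, 73502279 to 73527310, plus strand) held a resilient segment of 3000 bp (12.0% of the gene), and Zfp438 (chromosome 18, 5210028 to 5334437, minus strand) a susceptible segment of 1000 bp (0.804%). Of the 179 occupancy entries, 1 lay inside a segment of any group, the one at the start of Zfp936, and of the 5 shifts, 1 did, that of Zfp600. The same counts were not made over all H3 positions and shifts. Whether these counts are low or high for the series therefore cannot be told.

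**Figure D5:**
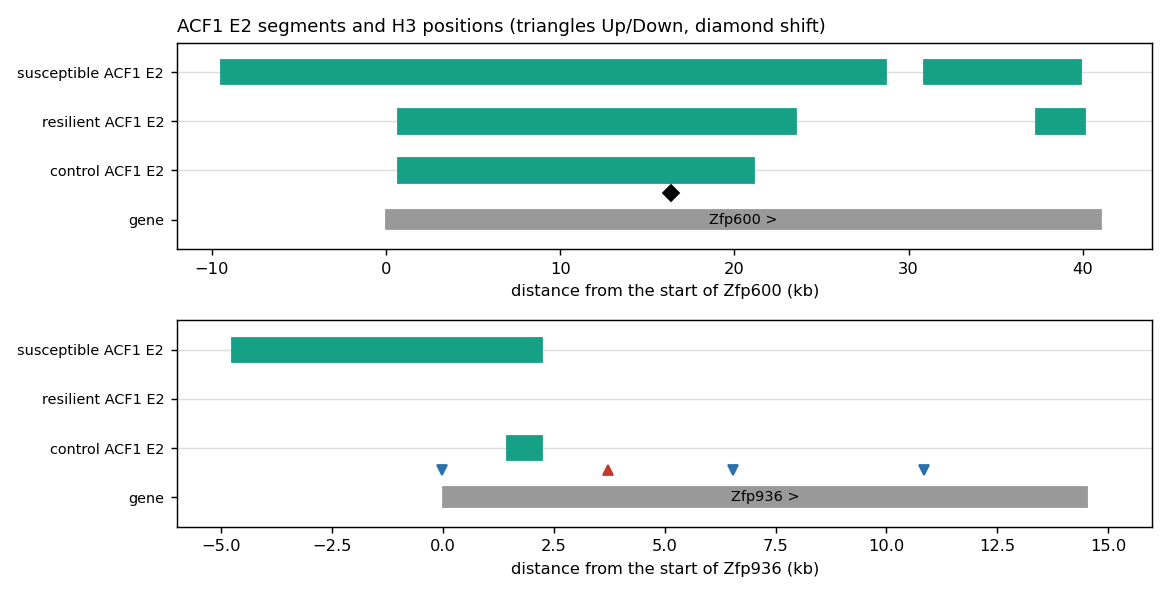
ACF1 E2 segments (green bars, a row per group) are drawn over Zfp600 (upper panel) and Zfp936 (lower panel) by distance from the gene start in kb, with grey boxes for the genes and markers for H3 positions (red triangle Up, blue triangle Down, black diamond shift). Segments cover 91.8% of Zfp600 in susceptible mice, 62.3% in resilient mice and 49.7% in control mice, and over Zfp936 the susceptible segment alone reaches across the gene start.

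Genes whose products work with KRAB zinc finger proteins were named about as often as other genes. Of 26 listed cofactors and H3K9 methylation genes, 6 were named, where 27.6% of RefSeq protein-coding genes were. The symbol Fam208a of the list had no match in RefSeq. Trim28, Setdb1 and the HP1 genes Cbx1, Cbx3 and Cbx5 were not among the 6. Chd3, a NuRD subunit, and Mphosph8, a HUSH subunit that binds methylated H3K9, each had 1 Up in susceptible against control mice. Pphln1, another HUSH subunit, had 1 Up in susceptible against control mice and 1 Down in resilient against susceptible mice. Morc3 had 1 Down in susceptible against control mice and 1 Up in resilient against control mice, Hdac2, a histone deacetylase of NuRD, 1 Down in resilient against control mice, and the DNA methyltransferase gene Dnmt3b 2 Down in resilient against susceptible mice.

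Other zinc finger families, by name start, were counted beside the Zfp genes. Of RefSeq genes outside chromosome 1, 8 of 13 Prdm genes, 10 of 38 Zbtb genes, 5 of 16 Zscan genes, 4 of 16 Klf genes, 4 of 15 Zc3h genes, 2 of 11 Zkscan genes, 1 of 4 Egr genes and 0 of 5 Zic genes were named, against 94 of 393 for Zfp and 27.6% of all protein-coding genes. No test was made between families. The Up share in the Prdm genes, which encode transcription factors with a PR domain, was 4 of 12 in susceptible against control mice, 2 of 5 in resilient against control mice and 5 of 6 in resilient against susceptible mice. In the Zbtb genes, which carry a BTB domain, it was 4 of 7, 4 of 8 and 4 of 8 in the same order. The background Up shares were 37.6%, 36.7% and 49.8%. These counts are too small to be set against the Zfp shares.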

How the data were processed

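H3 ChIP with micrococcal nuclease digestion and ACF1 ChIP were deposited for susceptible, resilient and control mice, while input and SNF2H libraries were not used here. The submitters' processing notes name CASAVA 1.8.2 and the build mm9. No aligner or calling program is given in the sources used here. Libraries had 15 (H3) or 19 (ACF1) cycles of PCR and 100 bp reads, per the labels' protocols. The deposited tables hold positions the authors selected, with an Up or Down mark or a shift in bp, and no counts or p-values. The pair and its order were read from the names of the tables.

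Members were found by name in the tables, and clusters by the gene bounds. RefSeq (GRCm38.p6) was used for names, neighbour order and promoters only. Intervals of shares are exact Clopper-Pearson intervals at 95%, and those of a difference join the 2 shares' intervals in quadrature. Counting was tested on simulated data. The software was pandas 2.3.3 and numpy 2.4.6 under Python 3.11.15, with scipy 1.17.1 for intervals and matplotlib 3.10.9 for plots. Genes were named if they were among the 10 with the most entries, held a shift or a segment, or lay in a run of at least 3. A rule for genes with a position nearest the start in more than 1 table was met by none. Other names, Zfp42 and Zfp616 among them, were chosen after their values were seen. The members and lists were chosen with earlier results of these data known. Chromosome 1 was left out by the rule that defines the set.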

Additional observations from a re-analysis of the deposited data

Results flagged for a closer look

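Zfp genes on chromosome 1 lie outside the set described above and still carried positions. The susceptible against control table held 14 occupancy positions there, in Zfp142 (1 Up, 4 Down), Zfp451 (6 Down) and Zfp648 (3 Down), and 2 shifts, of 60 bp in Zfp142 and -60 bp in Zfp451. The resilient against control and resilient against susceptible tables held 0 Zfp positions on that chromosome. Over all positions of chromosome 1, the susceptible against control table listed 32791, of which 98.2% were Down, against 1406 with 62.3% Down in resilient against control mice and 1310 with 50.2% Down in resilient against susceptible mice.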

How the results depend on the processing

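Of 74 alternatives over 21 results, 70 left the value within its own interval or, for a count, within 1.5 times. This count is not a measure of robustness, because many alternatives changed nothing and the intervals are wide. Merging positions within 200 bp left each value as it was. Keeping chromosome 1 could not move the resilient tables, which held 0 Zfp positions there. With only the class nearest the start counted as promoter, the Zfp promoter share was 1.54% in susceptible against control mice and 0.0% in resilient against susceptible mice, and the difference in Up share between promoters and bodies was -45.9 points in susceptible against control mice. With segments of at least 1000 bp, 1 Zfp gene was overlapped in control mice. Keeping chromosome 1 gave 39.2% Up in susceptible against control mice, against 46.2% without it, and a promoter share of 11.4% there, against 6.15%. The difference between clustered and single genes in that table ranged between 17.5 and 38.9 points, positive under every alternative run, all of them drawn from the same positions. No paired analysis was possible because each group had 1 deposited result. Depth, replicate spread, sizes of the H3 changes and positions tested but not selected are unknown, which limits every share given here.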
